A study of Arabidopsis thaliana with 12 samples.

Results

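The beta-tubulin genes TUB1 to TUB9 of Arabidopsis thaliana were followed through 4 treatments of seedlings. They were chosen by gene identifier, and all 9 were found among the 32833 genes of the deposited expression table. All plants were Col-0, the reference accession, with no transgene or mutation named. They were 10 days old, had been raised as whole seedlings in liquid medium, and were harvested 6 h after treatment. The control group received DMSO, the solvent, which was also present in the other groups at equal amount. Isoxaben was given at 600 nM and PEP3 at 10 nM, each alone or both in a combined group. Isoxaben, a herbicide, blocks cellulose synthesis. PEP3 is a short plant peptide sensed by receptor kinases at the cell surface, which set off defence signalling. Each treatment had 3 biological replicates, giving 12 RNA sequencing libraries. Seedlings shared wells of 6 seeds, so a library holds RNA of all organs of several plants.

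Beta-tubulin pairs with alpha-tubulin to form the dimer from which microtubules are built. In growing plant cells, cortical microtubules lie under the plasma membrane and guide the cellulose synthase complexes that isoxaben removes from it. The same dimers make the spindle and the phragmoplast of dividing cells. Beta-tubulin proteins are alike along most of their length and differ most in the acidic tail at the carboxyl end, which lies on the outside of the microtubule and is contacted by motors and other binding proteins.

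The last 60 coding bases of each gene, which encode this tail, are shown because it is where the isotypes differ most. They are in RefSeq TAIR10.1, 5′ to 3′ on the gene's strand, with in-frame codons for glutamate or aspartate in capitals and the stop codon at the end.
TUB1 (chr1:28451378-28451437, minus strand): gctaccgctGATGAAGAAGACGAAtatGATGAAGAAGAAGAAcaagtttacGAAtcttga
TUB2 (chr5:25183442-25183501, plus strand): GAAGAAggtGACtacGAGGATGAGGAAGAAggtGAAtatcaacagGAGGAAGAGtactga
TUB3 (chr5:25186367-25186426, plus strand): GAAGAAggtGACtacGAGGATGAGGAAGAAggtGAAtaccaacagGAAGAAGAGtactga
TUB4 (chr5:17859442-17859501, minus strand): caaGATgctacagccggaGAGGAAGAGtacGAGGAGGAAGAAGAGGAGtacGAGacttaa
TUB5 (chr1:6938033-6938092, minus strand): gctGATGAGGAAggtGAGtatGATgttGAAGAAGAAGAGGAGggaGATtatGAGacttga
TUB6 (chr5:3961317-3961376, minus strand): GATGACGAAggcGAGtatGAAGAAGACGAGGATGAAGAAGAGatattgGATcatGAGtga
TUB7 (chr2:12644258-12644317, minus strand): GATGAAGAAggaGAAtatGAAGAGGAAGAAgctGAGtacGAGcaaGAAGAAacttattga
TUB8 (chr5:8044469-8044528, plus strand): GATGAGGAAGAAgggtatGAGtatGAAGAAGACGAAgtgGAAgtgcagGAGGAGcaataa
TUB9 (chr4:11183781-11183840, plus strand): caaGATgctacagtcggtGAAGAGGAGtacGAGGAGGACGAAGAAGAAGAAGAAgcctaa
Between 11 and 14 of the 19 codons before the stop were acidic, the most in TUB6. The ends of TUB2 and TUB3 differed at 2 of 60 bases. Over the whole coding sequence, TUB2 and TUB3 were 97.6% identical. The next closest pair, TUB4 and TUB9, was 87.5% identical, TUB1 and TUB5 were also 87.5% identical, and the median of the 36 pairs was 80.4%. TUB2 and TUB3 lie in tandem on chromosome 5, 446 bases apart with no gene between them, and the deposited table gives both the name TUBB3 and the description of the beta-2 chain. Of all 150-base windows of their transcripts, 4.56% of those of TUB2 and 4.51% of those of TUB3 occurred in the other gene, and 0% of those of the other members occurred in another member. A fragment that lies in such a window could not be assigned to one gene of the pair from its sequence, so their levels are less certain than those of the others.

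The 250 bases before the annotated start are shown for 2 pairs, TUB5 and TUB6, which both fell after isoxaben, and TUB2 and TUB3, whose coding sequences are near-identical and of which TUB3 alone was called after PEP3. The strands are those of the genes, and capitals mark the letters TATAAA of the TATA box and the site II motif, TGGGCC or TGGGCT, read on both strands.
TUB5 (chr1:6940833-6941082, minus strand): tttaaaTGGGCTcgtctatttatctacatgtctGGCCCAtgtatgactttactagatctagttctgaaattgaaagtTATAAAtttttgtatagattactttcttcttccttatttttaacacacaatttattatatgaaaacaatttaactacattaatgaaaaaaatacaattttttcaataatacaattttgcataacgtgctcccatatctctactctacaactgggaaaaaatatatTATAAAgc
TUB6 (chr5:3963625-3963874, minus strand): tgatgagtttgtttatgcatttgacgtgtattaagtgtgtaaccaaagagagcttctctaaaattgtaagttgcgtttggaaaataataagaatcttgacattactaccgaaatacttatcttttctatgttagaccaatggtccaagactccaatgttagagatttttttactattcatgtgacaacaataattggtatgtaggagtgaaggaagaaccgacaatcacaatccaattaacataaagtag
TUB2 (chr5:25181046-25181295, plus strand): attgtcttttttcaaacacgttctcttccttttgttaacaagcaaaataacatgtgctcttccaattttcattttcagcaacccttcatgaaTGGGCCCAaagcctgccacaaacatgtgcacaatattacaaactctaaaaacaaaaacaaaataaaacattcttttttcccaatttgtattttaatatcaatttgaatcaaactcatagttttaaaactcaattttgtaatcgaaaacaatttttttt
TUB3 (chr5:25184008-25184257, plus strand): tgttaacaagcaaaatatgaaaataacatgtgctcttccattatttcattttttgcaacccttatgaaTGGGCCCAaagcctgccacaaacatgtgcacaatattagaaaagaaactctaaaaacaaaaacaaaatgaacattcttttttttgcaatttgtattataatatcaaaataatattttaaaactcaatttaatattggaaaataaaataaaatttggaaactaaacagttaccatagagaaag
TUB2 and TUB3 each held 2 overlapping site II matches in the palindrome TGGGCCCA, which began 158 bases before the start of TUB2 and 182 before that of TUB3. Over the whole windows, palindrome included, the pair had 67.5% identity over 277 aligned columns. TUB5 held site II matches beginning 244 and 217 bases before its start, and TATAAA beginning 173 and 8 bases before it. TUB6 held neither motif. Among all 9 genes, TATAAA was found in 4 and site II in 3, against 47.4% and 19.2% of 27418 protein-coding genes with a window of the same length. The telo box (AAACCCTA) was found in 0 of 9 against 4.48%, the G-box (CACGTG) in 1 (TUB7) against 6.48%, and the W-box (TTGACC or TTGACT) in 1 (TUB1) against 28.4%. These are matches of letters only.

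The 12 libraries held between 16995775 and 22793764 fragments assigned to genes, recovered from the deposited values. The unit of level, FPKM, counts fragments after correction for transcript length and sequencing depth. Each beta-tubulin value rested on between 218 fragments (TUB1) and 9974 fragments (TUB4) per library. Replicates correlated at 0.986 to 0.991 across genes. All 5 shoot markers and all 7 root markers used to check the tissue label were above the threshold for testing. Of 4 pollen markers, VGD1 was listed at 0 FPKM in all 12 libraries and the 4 together summed to between 0.228 and 1.95 FPKM. The test was limma's moderated test of log2(FPKM + 1). It covered the 20248 genes whose mean reached 0.5 FPKM, and all 9 members passed this filter. A gene was called when its Benjamini-Hochberg p, adjusted over all tested genes, was under 0.05, and percentage changes are on the FPKM + 1 scale.

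In DMSO-treated seedlings TUB4 had the highest level, 252 ± 2.16 FPKM (mean ± SD, n = 3), followed by TUB2 at 142 ± 3.28 and TUB3 at 135 ± 0.443. Missense alleles of TUB4 are known to twist the growth of the plant. A middle group followed, with TUB6 at 93.2 ± 1.49 FPKM, TUB5 at 92.7 ± 2.88, TUB7 at 86.0 ± 3.99 and TUB9 at 85.4 ± 1.47. TUB8, known for its expression in phloem, had 27.7 ± 1.24 FPKM. TUB1, known as a root-expressed gene that light represses, was lowest at 12.7 ± 1.05 FPKM. The libraries of TUB6 and TUB5 overlapped, as did those of TUB7 and TUB9, and every other pair of neighbours in this order was separate. TUB4 made 27.2 ± 0.234% of the summed beta-tubulin FPKM and TUB1 1.37 ± 0.123%.

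After isoxaben the middle of the order changed: TUB9 followed TUB3, at 89.8 ± 2.82 FPKM, above TUB7 at 78.1 ± 5.12, TUB6 at 72.1 ± 6.90 and TUB5 at 53.3 ± 3.58. TUB7 and TUB6 overlapped, as did TUB2 and TUB3, and the other neighbours were separate. The top 3 and the lowest 2 genes kept their ranks in all 4 treatments. With both treatments no neighbours overlapped, and TUB5, at 55.4 ± 2.31 FPKM, was again below all but TUB8 and TUB1.

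**Figure D1:**
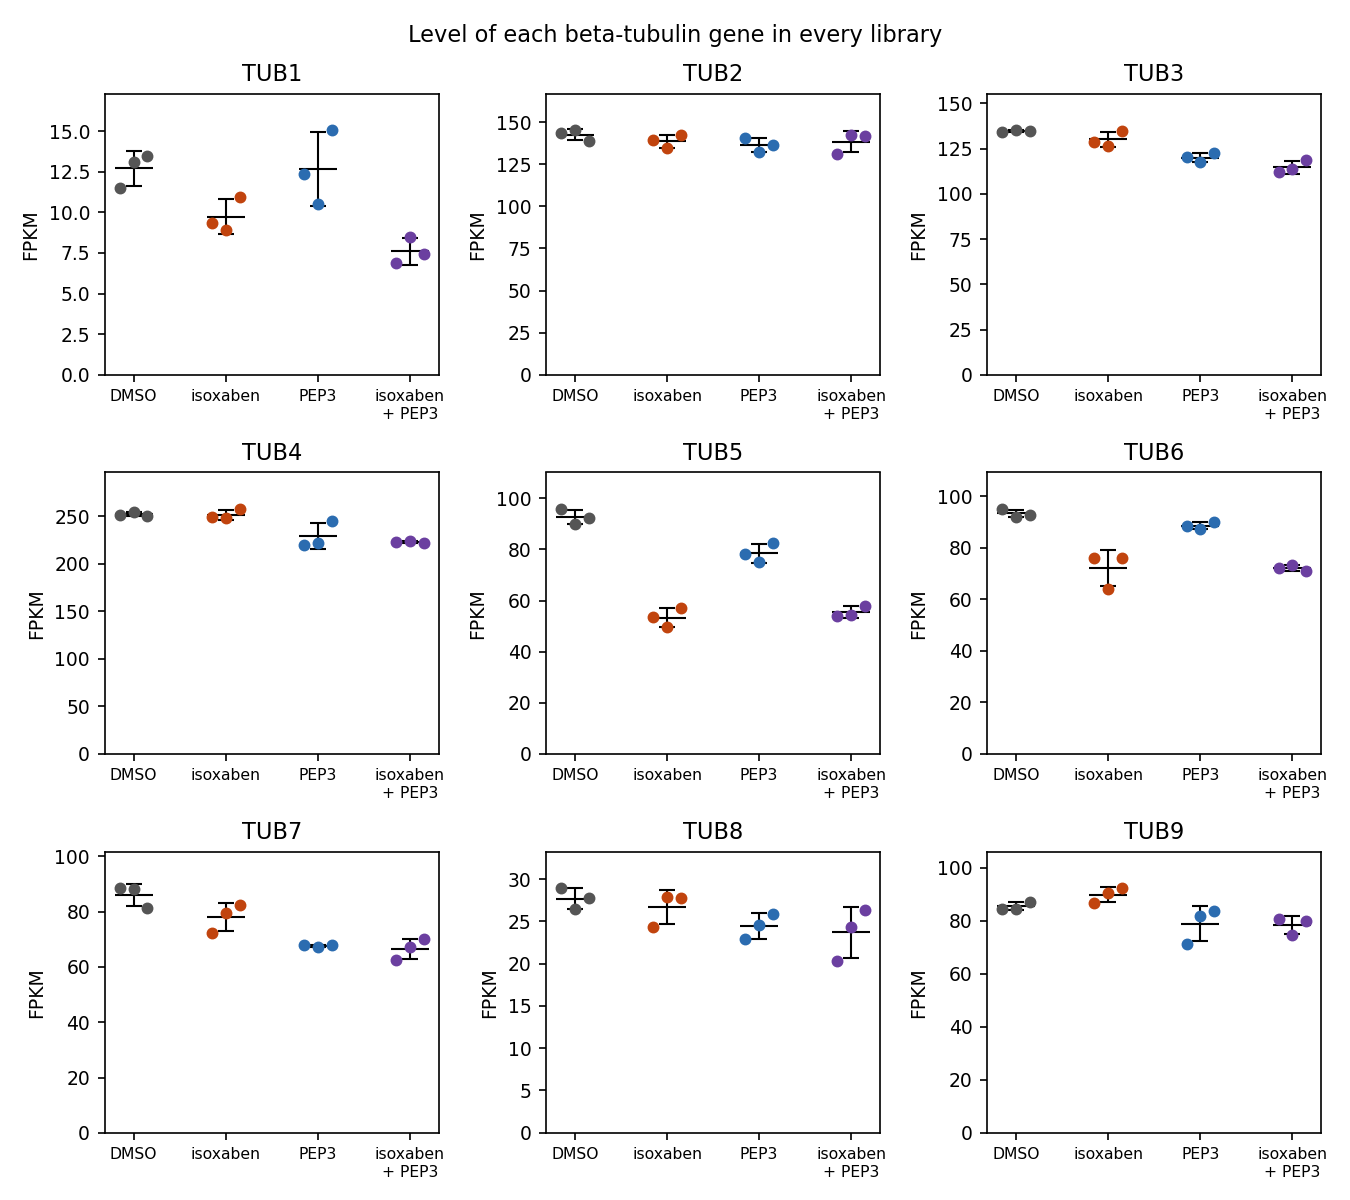
FPKM of each beta-tubulin gene in every library (points), with the mean and SD of the 3 libraries of each treatment in black; each panel has its own axis from 0. TUB5 lay between 49.7 and 58.0 FPKM in the 6 libraries with isoxaben and between 74.9 and 95.8 FPKM in the 6 without, while TUB2 stayed between 131 and 145 FPKM in all 12.

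Isoxaben against DMSO gives the difference in transcript level of the family 6 h after the herbicide. TUB5 showed the largest change of the 9, TUB6 and TUB1 were also called lower, and TUB2, TUB3 and TUB4, which hold the most transcript, were not called. TUB5 (AT1G20010, chromosome 1, 6937719 to 6940832, minus strand, 3 exons) had 95.8, 90.0 and 92.5 FPKM in the DMSO libraries and 53.4, 49.7 and 56.9 FPKM in the isoxaben libraries. The groups were far apart, with every isoxaben library well under the lowest DMSO library. TUB5 fell by 42.1% (log2 change -0.79, SE 0.0634, limma adjusted p = 6.22e-07).

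TUB6 (AT5G12250, chromosome 5, 3960938 to 3963624, minus strand, 4 exons) had 94.9, 92.0 and 92.8 FPKM in DMSO and 76.2, 64.1 and 76.0 FPKM in isoxaben. The groups did not overlap, and isoxaben replicate 2 was the lowest library. TUB6 fell by 22.7% (log2 change -0.37, SE 0.0646, limma adjusted p = 0.00056). A gene on the same strand, with 26.6 FPKM on average, covers 3.09% of TUB6. TUB1 (AT1G75780, chromosome 1, 28451138 to 28453820, minus strand, 3 exons) had 11.5, 13.1 and 13.5 FPKM in DMSO and 9.35, 8.92 and 10.9 FPKM in isoxaben. The groups were separate by a narrow margin, between DMSO replicate 1 and isoxaben replicate 3. TUB1 fell by 21.7% (log2 change -0.35, SE 0.122, limma adjusted p = 0.0404).

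The call of TUB1 was lost under 8 of 26 alternatives, with adjusted p between 0.0185 and 0.135: without DMSO replicate 2 or 3, isoxaben replicate 1 or 2, PEP3 replicate 1 or combined replicate 3, with no filter and with no trend in the variance. Genes on the opposite strand, with at most 4.06 FPKM on average, cover 24.2% of TUB1, and whether fragments were counted by strand is unknown here.

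For the 6 members that were not called, the intervals bound the change. That of TUB4 ran from -0.12 to 0.11 on the log2 scale around an estimate of -0.01, and its libraries (252, 255 and 250.5 FPKM in DMSO, 249, 248 and 257 in isoxaben) overlapped. For the tandem pair, TUB2 had a log2 change of -0.04 (95% interval -0.15 to 0.08) and TUB3 of -0.05 (-0.16 to 0.06). TUB7 had the change nearest to a call, -0.14 (95% interval -0.27 to -0.00016, adjusted p = 0.121). It was called with quantile normalization (adjusted p = 0.0348) and with GC and length trends removed (adjusted p = 0.0445). TUB8 had -0.05 (-0.25 to 0.14), and TUB9 had the only estimate above 0, 0.07 (-0.07 to 0.21). The 3 called members stood against 32.5% of all tested genes, 17.3% higher and 15.2% lower. The number of called members was thus close to the share over all genes. The ranges of the groups did not overlap for the same 3 of 9 members, against 45.2% of all genes, and the median log2 change was -0.05 for the family and -0.01 for all genes.

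The peptide without the herbicide was compared with the same 3 DMSO libraries, so these values are not independent of those for isoxaben. A partly different set was called, TUB7, TUB5 and TUB3, and all 9 estimates were below 0. TUB7 (AT2G29550, chromosome 2, 12643917 to 12646057, minus strand, 3 exons) had 88.5, 88.1 and 81.4 FPKM in DMSO and 67.9, 67.2 and 67.9 FPKM in PEP3. The PEP3 libraries lay within 1 FPKM of each other and all below the lowest DMSO library. TUB7 fell by 21.0% (log2 change -0.34, SE 0.0637, limma adjusted p = 0.00329). A gene on the opposite strand, with 8.49 FPKM on average, covers 19.3% of TUB7.

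TUB5 had 78.1, 74.9 and 82.4 FPKM after PEP3, below all DMSO libraries and above all isoxaben libraries. It fell by 15.3% (log2 change -0.24, SE 0.0634, limma adjusted p = 0.0232). TUB3 (AT5G62700, chromosome 5, 25184258 to 25186777, plus strand, 3 exons) had 134, 135 and 135 FPKM in DMSO and 120.2, 118 and 122 FPKM in PEP3. The groups were separate, with little spread in either. TUB3 fell by 10.8% (log2 change -0.16, SE 0.0494, limma adjusted p = 0.0408).

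The 3 called members stood against 14.3% of all genes, 7.84% higher and 6.45% lower, and the family median of -0.14 against 0.01 over all genes. The count fell to 1, TUB7, without DMSO replicate 1 or 3 or PEP3 replicate 1 or 2, in each of which the calls of TUB5 and TUB3 were lost. TUB3 was also lost without DMSO replicate 2, isoxaben replicate 1, PEP3 replicate 3 or combined replicate 2, and its adjusted p lay between 0.0272 and 0.147 over 25 alternatives, of which 16 ended the call. Among these were every other scaling tried (adjusted p = 0.0754 for TPM, 0.0861 for quantile normalization, 0.0622 with GC and length trends removed, 0.0736 for summed fragments) and voom (0.0521). The replicate block (0.054), the fit of the compared groups only (0.0631) and the fit with no trend (0.1) ended it too. The ranges of the PEP3 and DMSO libraries did not overlap for 7 of the 9 genes, all lower after PEP3, against 32.2% of all genes. TUB4 was among these, with 219, 222 and 244 FPKM after PEP3, but its change of -0.14 was not called (adjusted p = 0.0888). Without PEP3 replicate 3, its highest PEP3 library, TUB4 was called (adjusted p = 0.0304).

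**Figure D2:**
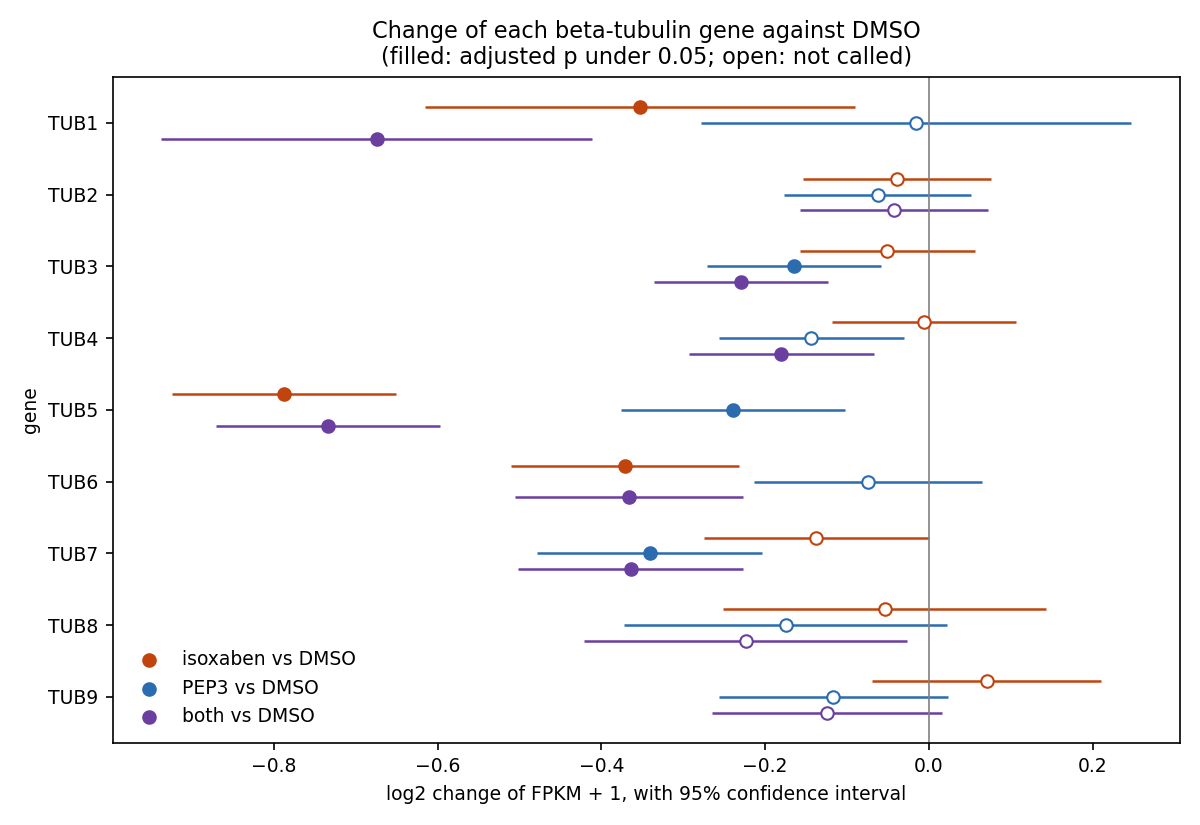
Log2 change of FPKM + 1 against DMSO for each beta-tubulin gene (points) with its 95% confidence interval (lines), after isoxaben, PEP3 and both; filled points have an adjusted p under 0.05. TUB5, TUB6 and TUB1 are filled for isoxaben, TUB7, TUB5 and TUB3 for PEP3, and TUB2, TUB8 and TUB9 for none.

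TUB2 (AT5G62690, chromosome 5, 25181296 to 25183811, plus strand, 3 exons) was called in none of the 6 comparisons. It had 143, 145 and 139 FPKM in DMSO, 139.5, 134 and 142 in isoxaben, 141, 132 and 136 in PEP3 and 131, 142 and 142 in the combined treatment. All 4 groups overlapped. The level of TUB3 relative to its tandem neighbour TUB2 was 0.946 ± 0.0208 in DMSO, 0.938 ± 0.0134 in isoxaben, 0.881 ± 0.0224 in PEP3 and 0.830 ± 0.0281 with both. The highest ratio in the 6 libraries with PEP3, 0.897, lay under the lowest in the 6 without, 0.923. The mean log2 difference in the ratio was -0.14. No p-value is given for it, since the ratio was chosen after its values were seen. Summed as 1 feature, the pair was not called after PEP3 (log2 change -0.11, limma adjusted p = 0.167) nor after both (-0.13, adjusted p = 0.062).

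The combined treatment against DMSO called 6 of the 9 members, all lower, against 31.4% of all genes, 16.9% higher and 14.4% lower. The ranges did not overlap for 8 of the 9, against 45.2% of all genes. The called members were TUB5, TUB1, TUB6, TUB7, TUB3 and TUB4, which is every member called after isoxaben or PEP3 alone and TUB4. TUB5 had 53.8, 54.2 and 58.0 FPKM and fell by 39.9% (log2 change -0.73, SE 0.0634, limma adjusted p = 1.70e-06). TUB1 had 6.88, 8.48 and 7.41 FPKM, its lowest levels, and fell by 37.4% (log2 change -0.67, SE 0.122, limma adjusted p = 0.000843).

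TUB6 had 72.0, 73.3 and 70.9 FPKM and fell by 22.4% (limma adjusted p = 0.000706). TUB7 had 62.7, 67.1 and 70.0 FPKM and fell by 22.3% (limma adjusted p = 0.000664). Both lay below all of their DMSO libraries, TUB6 near its level after isoxaben and TUB7 near its level after PEP3. TUB3 had 112, 114 and 119 FPKM and fell by 14.7% (limma adjusted p = 0.00296). TUB4 (AT5G44340, chromosome 5, 17859136 to 17861150, minus strand, 3 exons) had 222, 223 and 222 FPKM, below all DMSO libraries, and fell by 11.8% (log2 change -0.18, SE 0.0522, limma adjusted p = 0.018). Without DMSO replicate 2 the call of TUB4 was lost (adjusted p = 0.061). TUB8 (AT5G23860, chromosome 5, 8042853 to 8044934, plus strand, 3 exons) had 20.3, 24.3 and 26.3 FPKM, against 28.9, 26.4 and 27.7 in DMSO, and a log2 change of -0.22 that was not called (adjusted p = 0.0808). It was called without combined replicate 3, its highest combined library (adjusted p = 0.032), and under 2 of the scalings tried. TUB9 (AT4G20890, chromosome 4, 11182092 to 11184559, plus strand, 3 exons) had 80.7, 74.5 and 79.8 FPKM and was not called (log2 change -0.12, adjusted p = 0.17). The gene on its opposite strand, which covers 18.5% of TUB9, had 0.00674 FPKM on average.

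What isoxaben added to PEP3 was given by the combined treatment against PEP3 alone. TUB1, TUB5 and TUB6 were called, all lower, against 8.26% of all genes, 6.02% higher and 2.25% lower. The ranges did not overlap for these 3, against 26.5% of all genes. TUB1 fell by 36.7% (log2 change -0.66, SE 0.122, limma adjusted p = 0.00396), TUB5 by 29.1% (-0.50, SE 0.0634, adjusted p = 0.00023) and TUB6 by 18.3% (-0.29, SE 0.0646, adjusted p = 0.0122). All 3 held this call in each of the 26 alternatives. They are the genes called for isoxaben against DMSO, whose groups share no library with these, although all libraries set the variance. For the other 6 members the libraries of the groups overlapped, and their log2 changes lay between -0.06 (TUB3) and 0.02 (TUB2).

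Adding PEP3 to isoxaben was read from the combined libraries against those with the herbicide alone. TUB3 and TUB7 were called lower, against 7.41% of all genes, 3.32% higher and 4.09% lower. The ranges did not overlap for 5 of 9 members, against 25.1% of all genes. TUB3 fell by 11.7% (log2 change -0.18, SE 0.0494, limma adjusted p = 0.0443) and TUB7 by 14.6% (-0.23, SE 0.0637, adjusted p = 0.0473). Both calls were close to the threshold. TUB3 lost its call in 18 of 25 alternatives and TUB7 in 17 of 26, and the count lay between 0 and 2 when 1 library was left out. Among these omissions TUB3 kept its call only without PEP3 replicate 3 and TUB7 only without isoxaben replicate 1, so each of the other 10 libraries, left out, ended both calls. Other members gained a call, TUB4 without PEP3 replicate 3 (adjusted p = 0.0358) and TUB9 without PEP3 replicate 1 (adjusted p = 0.0459). TUB5 and TUB6, the members with the firmest response to isoxaben, had changes of 0.05 (95% interval -0.08 to 0.19) and 0.00433 (-0.14 to 0.14). TUB1 had the lowest estimate, -0.32, with separate groups but no call (adjusted p = 0.136).

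The interaction, (both - isoxaben) - (PEP3 - DMSO) on the log2 scale, asks whether the treatments added up. It called 0 of the 9 members in limma and 0 with voom, against 6.24% of all genes in limma, 1.94% higher and 4.3% lower. At an unadjusted p under 0.05 there was 1 member, TUB5. Its interaction was 0.29 (SE 0.0897, 95% interval 0.1 to 0.49, limma adjusted p = 0.0728). The level of TUB5 after both treatments, 55.4 ± 2.31 FPKM, was near that after isoxaben alone, 53.3 ± 3.58. Without isoxaben replicate 3 the TUB5 interaction was called (0.34, adjusted p = 0.0377). TUB1 had the lowest interaction, -0.31 (95% interval -0.68 to 0.07), and the other 7 lay between -0.08 and 0.11.

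The summed level of the family was between 919 and 934 FPKM in DMSO, between 830 and 880 in isoxaben, between 818 and 868 in PEP3 and between 762 and 795 with both. Every treated library had less beta-tubulin transcript than every DMSO library, and the combined libraries had the least. In bulk tissue, fewer cells of a type and less RNA per cell cannot be told apart. The share of TUB5 in the sum went from 10.0 ± 0.291% in DMSO to 6.27 ± 0.245% in isoxaben, 9.39 ± 0.202% in PEP3 and 7.10 ± 0.183% with both. The share of TUB4 was 27.2 ± 0.234% in DMSO and 29.6 ± 0.34% in isoxaben, and that of TUB9 was 9.21 ± 0.232% and 10.6 ± 0.293%. Since shares sum to a fixed total, the fall of some members raises the shares of the others, also where their own level was not called changed. The 6 alpha-tubulin genes, the partners in the dimer, summed to between 1188 and 1227 FPKM in DMSO and between 907 and 998 FPKM with both treatments. The ratio of summed beta to summed alpha was 0.770 ± 0.0077 in DMSO, 0.780 ± 0.0101 in isoxaben, 0.807 ± 0.0148 in PEP3 and 0.813 ± 0.0288 with both.

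**Figure D3:**
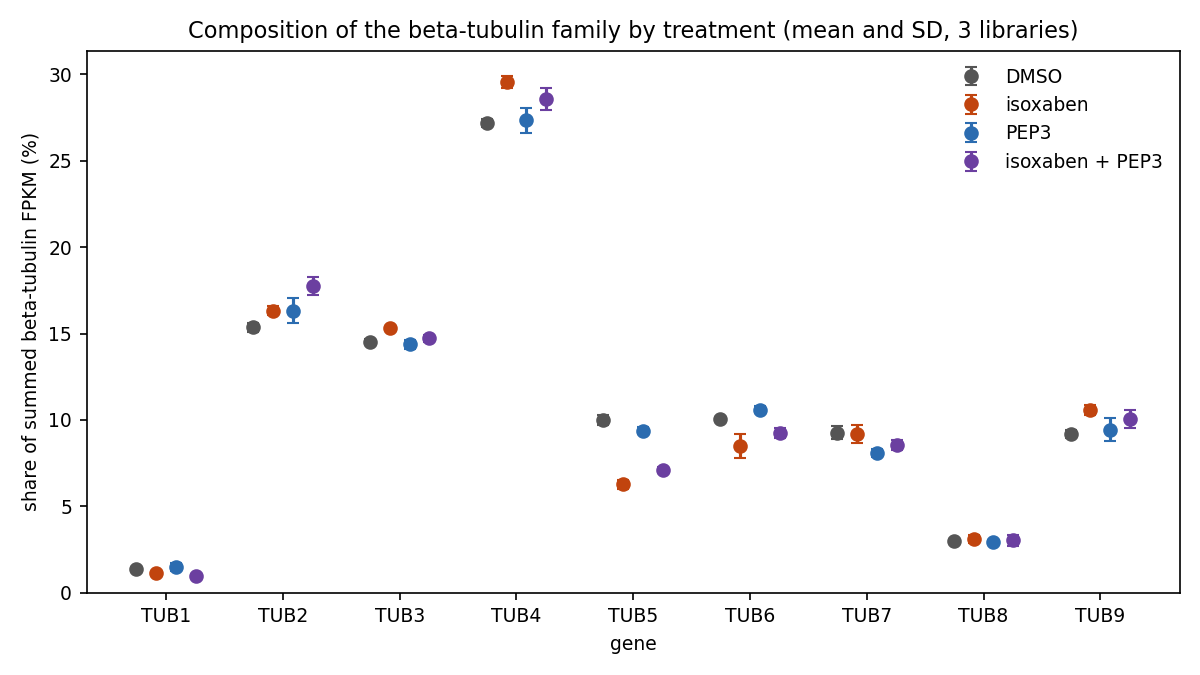
Share of each gene in the summed beta-tubulin FPKM of a library, as the mean (points) and SD (bars) of the 3 libraries of each treatment. TUB5 drops from 10.0% in DMSO to 6.27% in isoxaben and 7.10% with both, while TUB4 holds between 27.2% and 29.6% throughout.

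Other genes of the microtubule system were counted on lists chosen by gene identifier. After isoxaben, 2 of 6 alpha-tubulin genes fell, TUA5 (log2 change -0.31, limma adjusted p = 0.000528) and TUA3 (-0.26, adjusted p = 0.00311), a tandem pair whose reads may be hard to tell apart. After PEP3, 3 fell, with TUA2 (-0.29, adjusted p = 0.00821) and TUA6 (-0.26, adjusted p = 0.0165) lowest. Over all genes 32.5% were called after isoxaben (15.2% lower) and 14.3% after PEP3 (6.45% lower), so the share of alpha-tubulin genes called after isoxaben was near the background. Of 15 genes for tubulin folding and microtubule nucleation, 14 were tested and 4 fell after isoxaben, none rising, against the same 32.5% of all genes called and 15.2% lower. The lowest were GCP6 (-0.39, adjusted p = 0.00636), a subunit of the gamma-tubulin complex, and TUBG2 (-0.29, adjusted p = 0.0186), a gamma-tubulin. After PEP3 none of these 14 was called in limma and 1 with voom, and 2 had an unadjusted p under 0.05.

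Of 34 microtubule-associated genes, 32 were tested, and 7 fell and 3 rose after isoxaben, a share near the 32.5% of all genes. MAP70-4 (-0.60, adjusted p = 0.000456) and MAP65-5 (-0.44, adjusted p = 0.0354), both microtubule-binding proteins, were lowest. CC1 rose from 63.7 ± 4.73 to 85.5 ± 1.47 FPKM (log2 change 0.42, limma adjusted p = 0.000128). CC1 is a companion of the cellulose synthase complex that binds microtubules. WVD2 had the highest log2 change, 0.70 (adjusted p = 0.00513), from a low level of 0.141 FPKM to 0.854 FPKM. After PEP3, 3 of the 32 fell and none rose, against 14.3% of all genes called and 6.45% lower, so this share was not above the background of all calls. MAP65-4 (-0.46, adjusted p = 0.026) and MAP65-3 (-0.41, adjusted p = 0.0256), crosslinkers of the spindle and phragmoplast, were lowest. The medians after isoxaben were -0.14 for alpha-tubulin, -0.08 for folding and nucleation and -0.04 for the associated genes, beside -0.05 for beta-tubulin and -0.01 for all genes.

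**Figure D4:**
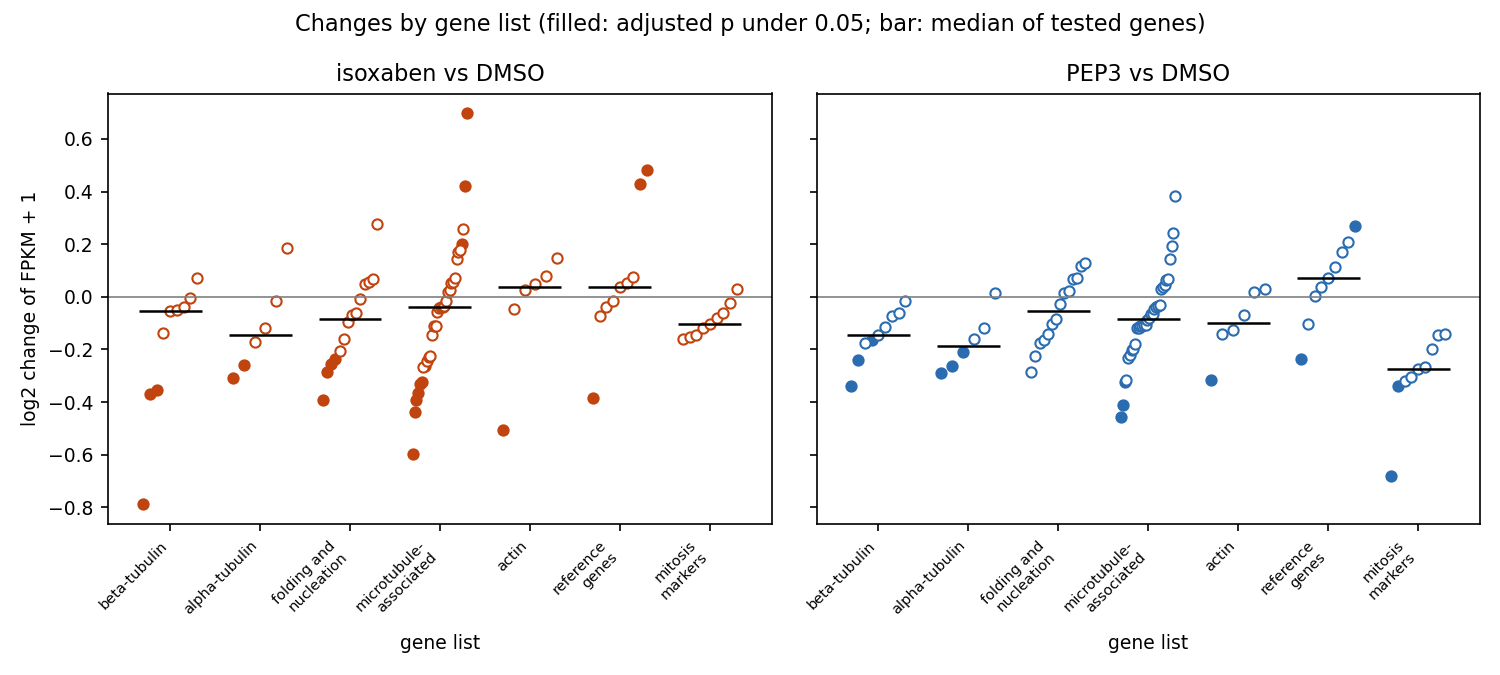
Log2 change of FPKM + 1 for each tested gene (points, sorted within a list) after isoxaben (left) and PEP3 (right), with called genes filled and the median of each list as a bar. TUB5 is the lowest point after isoxaben, at -0.79, among the lists plotted, which leave out the organ markers, and no beta-tubulin gene is filled above 0.

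Markers of dividing cells and of the organs were set beside these changes. None of 9 mitosis markers was called after isoxaben in limma or with voom, and 0 had an unadjusted p under 0.05. After PEP3, 2 of the 9 fell, KN (-0.68, adjusted p = 0.00916) and CDKB2;1 (-0.34, adjusted p = 0.0411), and after both treatments 7 of 9 fell. The shares of all genes called were 32.5% after isoxaben, 17.3% higher and 15.2% lower. They were 14.3% after PEP3 (6.45% lower) and 31.4% after both (14.4% lower). The 9 summed to between 118 and 132 FPKM in DMSO, 106 and 126 in isoxaben, 91.1 and 107 in PEP3 and 92.2 and 97.0 with both. The sum was lower in every library with PEP3 than in every DMSO library. Of 5 shoot markers, 4 fell after isoxaben, most of all LHCB2.1 (-0.90, adjusted p = 7.91e-05) and CA1 (-0.83, adjusted p = 0.000138), and their sum went from 23177 to 24467 FPKM in DMSO to between 18861 and 20582 FPKM. After PEP3 the sum was between 20064 and 23168 FPKM, also below all DMSO libraries, and CA1 (-0.47, adjusted p = 0.021) and RBCS3B (-0.29, adjusted p = 0.0188) fell. TUB5 was called lower after each treatment alone, as CA1 was. With both, CA1 had 195 FPKM on average against 152 after isoxaben, and TUB5 had 55.4 against 53.3. All 5 shoot markers had an interaction above 0, and 2 were called, both higher, against 6.24% of all genes (1.94% higher). The interaction of TUB5 was 0.29 and not called. LHCB2.1 was not called after PEP3, at 186 FPKM on average against 182 in DMSO. TUB1 and TUB6 were called after isoxaben and not after PEP3. With both treatments the sum of the shoot markers was between 20159 and 20973 FPKM. Against isoxaben alone 1 of the 5 was called, LHCB2.1, which was higher (0.72, limma adjusted p = 0.00342). Of all genes 7.41% were called in that comparison, 3.32% higher. Of 7 root markers, 1 rose after isoxaben, RHD2 (0.55, adjusted p = 0.00471), and their sums overlapped, at 62.1 to 78.7 FPKM in DMSO and 69.8 to 89.9 in isoxaben. No shoot, root or mitosis marker was at 0 in any library, and their part in the tubulin changes was not tested.

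Across the 12 libraries TUB2 varied little. The SD of its log2(FPKM + 1) was 0.0467, and 0.272% of the 20248 tested genes had an SD that low. The mean of TUB2 was 139 FPKM, against a median of 9.17 FPKM over all tested genes. It was not compared with genes of like level only. TUB4 had an SD of 0.0926 and TUB3 of 0.0994, while TUB5 and TUB1 had 0.352 and 0.322, against a median of 0.183 over all genes. Of 9 genes commonly used as references in quantitative PCR, PP2AA3 had the lowest SD, 0.0603, and UBQ10 the highest, 0.219. Among the actin genes, ACT7 had an SD of 0.0465, about that of TUB2, and ACT2 of 0.0600. UBQ10 rose after isoxaben (log2 change 0.48, limma adjusted p = 0.000157), UBC9 rose (0.43, adjusted p = 0.000102) and GAPC2 fell (-0.38, adjusted p = 0.000411). After PEP3, UBQ10 rose (0.27, adjusted p = 0.0232) and GAPC2 fell (-0.24, adjusted p = 0.0252). Among 6 tested actin genes, 1 was called after isoxaben, ACT11, which fell (-0.51, adjusted p = 0.00114), as it did after PEP3 (-0.32, adjusted p = 0.0459). Of all tested genes 32.5% were called after isoxaben and 14.3% after PEP3.

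The members were compared by their pattern over the 12 libraries, which share 4 treatments. The log2 levels of TUB5 and TUB6 had a Pearson r of 0.959, those of TUB3 and TUB7 0.927 and those of TUB3 and TUB4 0.911. TUB6 and TUB9 had the lowest r of the 36 pairs, -0.107. With the treatment means removed, the first 3 pairs had 0.643, 0.565 and 0.487, and the highest r were those of other pairs, TUB3 and TUB5 (0.879), TUB1 and TUB4 (0.734) and TUB7 and TUB8 (0.724). The other genes most like each member were sought among 13467 genes averaging 5 FPKM or more, by the same r. For TUB5 they were COR413PM1 (0.988) and TIP1-2 (0.986), a tonoplast aquaporin, and for TUB6 APE2 (0.97), a chloroplast phosphate translocator, and AED3 (0.967). For TUB1 they were AGP7 (0.938), an arabinogalactan protein, and LRX5 (0.932), a leucine-rich repeat extensin of the wall. For TUB3 they were AT3G45070 (0.982) and the alpha-tubulin gene TUA4 (0.972), for TUB4 GASA14 (0.984) and AT1G04900 (0.96), and for TUB7 IMK2 (0.97) and AT5G16250 (0.964). For TUB2, TUB8 and TUB9 the highest r were 0.89 (DRM3), 0.88 (AT3G15357) and 0.93 (VDAC4). All these genes were picked as the highest r of a search over 13467 genes with 12 libraries. How high the top r would be for unrelated genes was not tested.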

How the data were processed

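RNA of whole seedlings was sequenced as poly(A)-selected, paired-end libraries. The authors deposited 1 table of FPKM with the gene lengths behind it. Reads were aligned with HISAT2 2.0.5 to TAIR10, per the submitters' processing notes. The sources used here do not give the counting program, the annotation or whether strand was used.

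Column names gave each library, leaving 0 value columns unmatched. After multiplying FPKM by gene length, 100% of values were whole numbers of a library's smallest step (tolerance 0.01), and these are the recovered fragments. With voom they called 6912 genes for isoxaben and 3053 for PEP3 against DMSO, beside 6577 and 2894 in the main test. The divisor was 0.982 to 1.03 times their sum, so a scaling between libraries is already in the values. Precision is limited by the 3 libraries per treatment.

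Log2(FPKM + 1) was tested with limma 3.58.1 (R 4.3.3), using a variance trend, a mean for each treatment, 8 residual degrees of freedom and no covariates. The filter left out 12585 genes. On simulated data with 200 of 20248 genes changed by 1 on the log2 scale, the 6 comparisons recovered between 85% and 98%. Between 3.41% and 6.34% of calls were false. All beta-tubulin estimates were smaller than 1, the largest being -0.79 for TUB5 after isoxaben. Recovery at such smaller sizes, or with more genes changed, was not tested.

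Positions are those of the deposited table. Of 32833 identifiers, 32547 matched the RefSeq TAIR10.1 annotation, with identical start and end for 99.95% of them, so sequences were read from that genome, whose name differs from the stated TAIR10. Identities were computed with global alignment in Biopython 1.88.

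The members and lists were chosen with earlier results of these data known. All 9 members were named. Of each other list, up to 2 called genes with the highest and 2 with the lowest change after isoxaben and after PEP3 were named, and for likeness the 2 genes with the highest r. Alternatives covered pseudocounts of 0.1 and 0.5, filters, scalings, variance settings, the replicate block, voom on the recovered fragments, TUB2 and TUB3 summed, and leaving out each library.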

Additional observations from a re-analysis of the deposited data

How the results depend on the processing

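The called members of isoxaben against DMSO, both against DMSO and both against PEP3 kept their count within 1.5 times under all 26 alternatives run, with ranges of 2 to 4, 5 to 7 and 3 to 3 members. Of 1383 values of single genes under the alternatives, 65 lost and 9 gained a call and 0 reversed. For PEP3 against DMSO the count of 3 was 1 with no trend in the variance. It was 2, without TUB3, with TPM scaling, quantile normalization, GC and length trends removed, summed fragments, the compared groups only, the replicate block and voom. For both against isoxaben the count of 2 was 1 with a pseudocount of 0.1, with no filter, with robust variances, with voom, with TUB2 and TUB3 summed (1 feature fewer) and when scaled to summed fragments, an alternative chosen after seeing the data. It was 0 with quantile normalization and with no trend, and 0 when only the compared groups were fitted, which uses fewer samples. The cause of the other shifts was not tested. Leaving out 1 library gave 2 to 3 members for isoxaben, 1 to 3 for PEP3, 5 to 7 for both, 0 to 2 for both against isoxaben, 3 to 3 for both against PEP3 and 0 to 1 for the interaction. With the replicate number as a block, both against isoxaben called 0 members, PEP3 against DMSO 2, and the other comparisons as many as without it; same-numbered libraries shared only a number, with correlations of deviations of -0.11 to 0.103 over 18 pairs, 1 of them over 0.1. No scaling moved the median of all genes by over 0.1 on the log2 scale. The interaction could not be fitted on the compared groups only, since it uses all 4. The fewest fragments lay behind TUB1, with 218 to 509 per library.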
